A study of Mus musculus with 2 samples.

Results

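The imprinted Dlk1-Dio3 cluster was described by its 6 best-known genes, Meg3, Rian, Mirg, Dlk1, Rtl1 and Dio3, which were found by symbol among the 24061 rows of the deposited read count table. All 6 had a row, and 5 had at least 20 counts summed over both libraries, the minimum for a gene to be called measured here. The cells were C57BL/6 mouse embryonic stem cells kept on feeder layers of mouse embryonic fibroblasts with leukaemia inhibitory factor, and stranded libraries were made from their poly(A) RNA. Whether feeders were removed before RNA extraction is not given in the sources used here. One library was labelled mES-Pc4-OE (passages 24 to 37) and the other mES-control (passages 17 to 23), so passage and label cannot be told apart. Pc4, positive cofactor 4, is a single-stranded DNA-binding transcriptional coactivator encoded by Sub1. It was to be overexpressed from a lentivirus that also carries Venus, a yellow fluorescent protein. The design text names 3 overexpressing lines, and the labels do not say which of them gave the library. With 1 library per group there was no replicate check: values are given with counting intervals only, and no test of the conditions was possible.

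In the mouse this cluster on chromosome 12 is controlled by a region between Dlk1 and Meg3 that is methylated on the paternal chromosome. The noncoding transcripts Meg3, Rian and Mirg are expressed from the maternal allele, and the protein-coding genes Dlk1, Rtl1 and Dio3 from the paternal one. Rian is the host of box C/D small nucleolar RNAs and Mirg of microRNAs. Mouse induced pluripotent lines that have silenced the maternal transcripts are known to contribute poorly to chimaeras. The counts do not separate alleles, so the allele of each gene below is textbook background.

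There were 10194783 counts in the library labelled Pc4-OE, against 10571463 in the library labelled control. Sub1 itself had 2432 counts in the library labelled Pc4-OE, fewer than the 5522 in the library labelled control (log2 ratio -1.17, interval -1.24 to -1.11). That goes against the label. Whether the 2 columns carry exchanged labels, or whether RNA of the introduced Pc4 is left out of the Sub1 row, cannot be told from the files used here. Every direction below is that of the labels, and would be the reverse if the labels were exchanged. Levels are in CPM, the count as parts of 1000000 of the library size after scaling by the trimmed mean of M values. A gene was called higher or lower when its ratio, Pc4-OE over control, was at least 2-fold and the exact 95% binomial interval of its counts excluded a ratio of 1. All 12 markers of pluripotent stem cells were present in both libraries. Pou5f1 stood at 571.4 CPM in the library labelled Pc4-OE and 1092.2 CPM in the library labelled control, Nanog at 506.1 and 427.5 CPM in the same order, and Sox2 at 456.1 and 461.0 CPM. Markers of the feeder cell type were also present in both and are given beside the results below.

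Meg3 was the member that met the 2-fold rule, so the sequence before its start is shown here. The window runs from 250 bases before to 50 bases after its RefSeq start (GRCm38, chr12:109540746-109541045, plus strand). Capitals mark a CCAAT box, a cAMP response element and a TATA box core with its overlapping copy on the other strand.
Meg3 promoter: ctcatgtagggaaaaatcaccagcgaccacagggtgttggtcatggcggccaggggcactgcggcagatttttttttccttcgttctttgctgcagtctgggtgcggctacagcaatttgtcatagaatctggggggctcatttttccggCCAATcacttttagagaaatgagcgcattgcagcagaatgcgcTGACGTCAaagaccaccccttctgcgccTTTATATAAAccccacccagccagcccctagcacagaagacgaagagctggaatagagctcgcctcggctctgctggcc
The cAMP response element (TGACGTCA, the same on both strands) begins 57 bases before the start. It is a sequence bound by CREB and ATF factors, and 1.79% of 32851 promoter windows of the same length hold it. The TATA box core (TATAAA, both strands) has 2 overlapping matches, 29 and 25 bases before the start, and 13.6% of all windows hold at least 1. The CCAAT match is 100 bases before the start, with 37.4% of windows holding one. The hexamer TGCCGC, recognised by the imprint-protecting factor ZFP57 when methylated, was matched 1 time, 190 bases before the start, and 11.6% of windows hold it. The windows of Rian and Mirg, the other maternal transcripts, hold neither TGACGTCA nor TATAAA. The Mirg window (109734731 to 109735030) is placed by its RefSeq start and lies inside its GENCODE span, which begins at 109729764. It holds microRNA hairpins and is not the sequence before the GENCODE start, so it is not a like comparison with the Meg3 window. Rian's window has 0 CpG pairs, Mirg's has 10 and the Meg3 window has 13. The Dio3 window has 25 CpG pairs and 1 TATAAA match, 31 bases before its start. Dlk1 has 9 CpG pairs and none of these 4 motifs. A second RefSeq start of Meg3, further along the gene, has 1 CpG pair and none of the 4 in its window. These matches are letters in a window and were not measured as binding.

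The maternal noncoding transcripts were the abundant part of the cluster, and their sum was larger in the library labelled Pc4-OE. Together they had 11555 counts (1116.4 CPM) in the library labelled Pc4-OE, against 5630 counts (540.7 CPM) in the library labelled control. The ratio of these sums was 2.06 (interval 2.00 to 2.13). They made up 0.113% of all counts of the library labelled Pc4-OE and 0.0533% of those of the library labelled control. The 3 paternal genes together had 100 counts in the library labelled Pc4-OE, against 92 in the library labelled control, a ratio of 1.09 (0.816 to 1.47). Without any scaling, maternal counts per paternal count were 115.6 in the library labelled Pc4-OE and 61.2 in the library labelled control. The ratio of these 2 values was 1.89 (exact conditional interval 1.40 to 2.54), so the maternal and paternal sums differed in their ratio beyond counting error. Dlk1 gave 49 of the 100 and 61 of the 92 paternal counts. Taken singly, it was the only paternal gene whose count ratio to a maternal transcript had an interval excluding 1. Against Rtl1 the change was 0.960 for Rian (0.572 to 1.59) and 1.05 for Mirg (0.598 to 1.81). Of the 5 measured members, 1 was called higher and 0 lower, beside 11.8% of all 14213 measured genes called higher and 4.02% called lower. That is the count of a single gene, Meg3, and the median log2 ratio of the 5 was 0.63, against -0.01 for all measured genes.

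**Figure D1:**
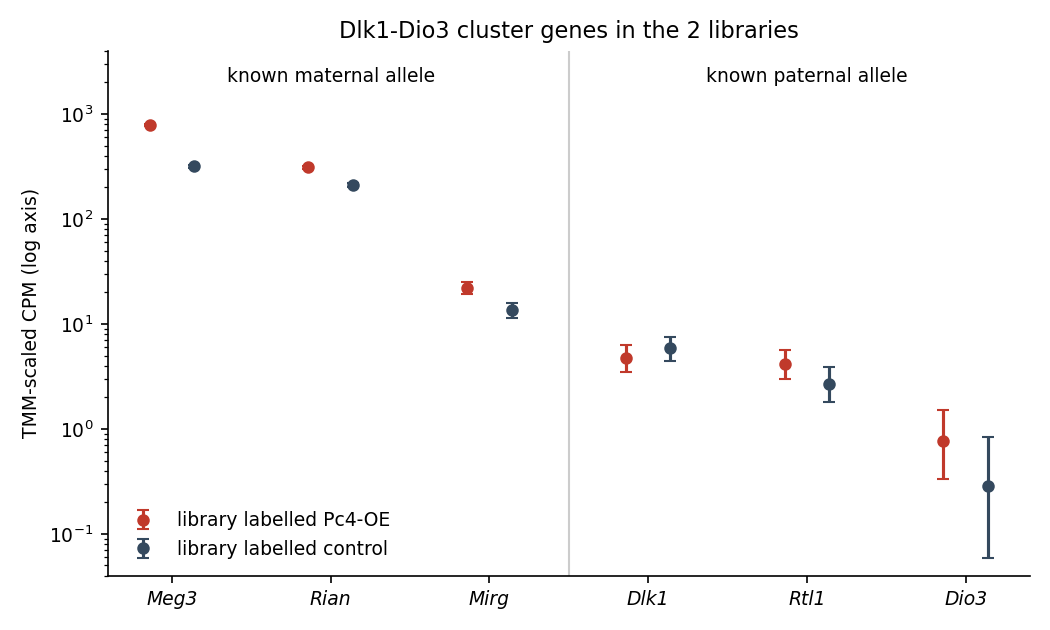
Level of each of the 6 genes as TMM-scaled CPM on a log axis, 1 point per library (Pc4-OE left, control right), with exact 95% Poisson intervals of the counts as bars. Meg3 stood at 783.4 CPM in the library labelled Pc4-OE and 317.3 CPM in the library labelled control, and the bars of the 3 paternal genes overlap between libraries.

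Meg3 (gene ID 17263), a long noncoding RNA known as a growth inhibitor and a partner of Polycomb proteins, is annotated at chromosome 12, 109541001 to 109571726, on the plus strand (GENCODE M21, GRCm38). It had 8108 counts (783.4 CPM) in the library labelled Pc4-OE, against 3304 counts (317.3 CPM) in the library labelled control. The log2 ratio was 1.30 (interval 1.25 to 1.36), or 2.47-fold. Of all measured genes, 8.06% had a higher ratio. Among the 574 genes whose mean level was within 2-fold of that of Meg3, 23 had a higher ratio.

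Rian (gene ID 75745, chromosome 12, 109603940 to 109661716, plus strand), also called Meg8, had 3220 counts in the library labelled Pc4-OE, against 2185 in the library labelled control. In CPM these were 311.1 and 209.8, a log2 ratio of 0.57 (interval 0.49 to 0.65). The interval excluded 0, but the 1.48-fold difference did not meet the 2-fold rule. Mirg (gene ID 100040724, chromosome 12, 109729764 to 109749460, plus strand), the microRNA-containing transcript also called Meg9, had 227 counts in the library labelled Pc4-OE, against 141 in the library labelled control. Its levels were 21.9 CPM and 13.5 CPM in the same order, and the log2 ratio was 0.70 (0.39 to 1.01), 1.62-fold. Both transcripts thus differed by more than counting error and by less than 2-fold.

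The 3 maternal transcripts did not keep their proportions. Meg3 made up 70.2% of their summed counts in the library labelled Pc4-OE (Wilson interval 69.3% to 71.0%) and 58.7% in the library labelled control (57.4% to 60.0%). Rian made up 27.9% (27.1% to 28.7%) in the library labelled Pc4-OE and 38.8% (37.5% to 40.1%) in the library labelled control. There were 2.52 Meg3 counts per Rian count in the library labelled Pc4-OE and 1.51 in the library labelled control, a change of 1.67-fold (exact conditional interval 1.56 to 1.78). For Meg3 per Mirg count the change was 1.52-fold (1.22 to 1.90). For Rian per Mirg count it was 0.915 (0.731 to 1.14), which includes 1. Meg3 thus differed more between the libraries than Rian and Mirg did, and the last pair was not distinguished at this depth. These ratios within a library depend on no scaling.

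Dlk1 (gene ID 13386, chromosome 12, 109452823 to 109463336, plus strand) encodes a membrane protein with EGF-like repeats that restrains fat cell formation and is related to Notch ligands. It had 49 counts (4.73 CPM) in the library labelled Pc4-OE, against 61 counts (5.86 CPM) in the library labelled control. The log2 ratio of -0.31 had an interval of -0.88 to 0.26, so no difference was detectable at this depth. Against Meg3, however, the change was measurable: Meg3 counts per Dlk1 count were 165.5 in the library labelled Pc4-OE and 54.2 in the library labelled control, 3.05-fold (2.06 to 4.55). The same ratio for Rian per Dlk1 was 1.83-fold (1.23 to 2.74) and for Mirg per Dlk1 2.00-fold (1.27 to 3.16). The count ratio of each maternal transcript to Dlk1 was thus larger in the library labelled Pc4-OE, beyond counting error.

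Rtl1 (gene ID 353326), a gene derived from a retrotransposon and needed in the placenta, is annotated on the minus strand (chromosome 12, 109589193 to 109600330). It had 43 counts (4.15 CPM) in the library labelled Pc4-OE, against 28 counts (2.69 CPM) in the library labelled control, a log2 ratio of 0.63 (interval -0.09 to 1.37). Its interval includes 0, and that of Meg3 per Rtl1 count includes 1 (1.60-fold, 0.954 to 2.64). The maternal strand opposite Rtl1 is known to be transcribed too. The libraries were stranded, but the strand setting of the counting is not given in the sources used here, so reads of the opposite strand may stand in this row. The RefSeq span of Rtl1, 109564900 to 109604418, also reaches over the end of Meg3 and the start of Rian.

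Dio3 (gene ID 107585, chromosome 12, 110279068 to 110281097, plus strand) encodes the deiodinase that inactivates thyroid hormone. It had 8 counts in the library labelled Pc4-OE, against 3 in the library labelled control, 0.773 and 0.288 CPM. The log2 ratio of 1.42 had an interval of -0.64 to 3.97. These counts are too few to tell the libraries apart. Of the 15 pairs of members, 5 changed in their count ratio with an interval that excludes 1: Meg3 with Rian, Mirg and Dlk1, Rian with Dlk1, and Mirg with Dlk1.

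**Figure D2:**
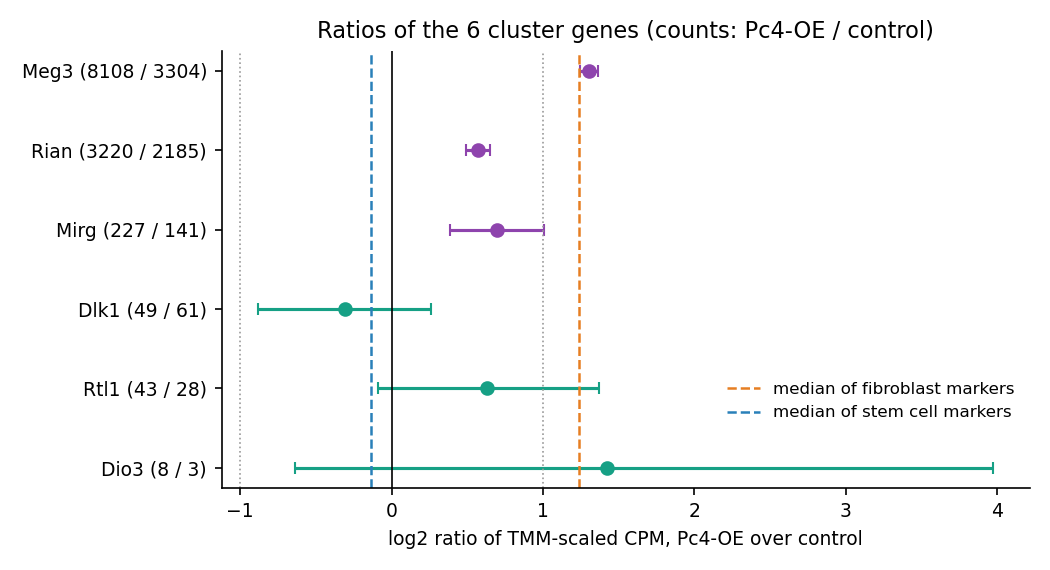
Log2 ratio of TMM-scaled CPM, Pc4-OE over control, for each gene with the exact 95% interval of its counts. Dotted lines mark 2-fold, dashed lines the medians of the fibroblast markers (1.24) and of the stem cell markers (-0.13). The interval of Meg3, 1.25 to 1.36, lies past 2-fold, and those of Dlk1, Rtl1 and Dio3 include 0.

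Levels of different genes were compared per length, as CPM per kilobase of the longest GENCODE transcript. In the library labelled Pc4-OE the order was Meg3 (53.8), Rian (38.5), Mirg (5.74), Dlk1 (1.02), Rtl1 (0.653) and Dio3 (0.381). In the library labelled control it was Rian (25.9), Meg3 (21.8), Mirg (3.54), Dlk1 (1.26), Rtl1 (0.423) and Dio3 (0.142). Meg3 and Rian exchanged places, and their counting intervals did not overlap in either library. With all exons of each gene joined, Meg3 stood above Rian in both libraries, at 43.3 over 17.1 in the library labelled Pc4-OE and 17.5 over 11.5 in the library labelled control. The order of that pair in the library labelled control therefore depends on the transcript length used. The counting intervals of Rtl1 and Dio3 overlapped in both libraries, and those of Dlk1 and Rtl1 in the library labelled Pc4-OE.

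Small RNA genes between Dlk1 and Dio3 had rows of their own in the table. The 7 rows of small nucleolar RNAs lie inside Rian. Together they had 309 counts in the library labelled Pc4-OE, against 161 in the library labelled control, a log2 ratio of 0.95 (0.67 to 1.23). AF357359 accounts for most of them, with 257 counts in the library labelled Pc4-OE, against 132 in the library labelled control (log2 ratio 0.97, interval 0.66 to 1.28). The other 6 rows had 52 and 29 counts in the same order (log2 ratio 0.85, 0.17 to 1.56). Both sums were larger in the library labelled Pc4-OE, as the count of Rian was. The log2 ratio of Rian, 0.57 (0.49 to 0.65), was below the intervals of the 7 rows summed and of AF357359. It was within that of the other 6 rows. The libraries were poly(A)-selected, and reads of the host and of the small nucleolar RNA cannot be told apart in these rows.

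The transcripts of 4 of these rows are in GENCODE M21 (GRCm38), and they are shown because their shared boxes define the family. Capitals mark the first TGATGA (box C) and the last CTGA (box D).
AF357425 (chr12:109636012-109636084, plus strand): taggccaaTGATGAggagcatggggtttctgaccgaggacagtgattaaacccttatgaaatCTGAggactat
DQ267100 (chr12:109649617-109649688, plus strand): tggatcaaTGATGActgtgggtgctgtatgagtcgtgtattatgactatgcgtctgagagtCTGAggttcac
DQ267101 (chr12:109651424-109651496, plus strand): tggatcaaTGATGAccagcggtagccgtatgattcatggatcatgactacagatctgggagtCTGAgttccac
DQ267102 (chr12:109656345-109656416, plus strand): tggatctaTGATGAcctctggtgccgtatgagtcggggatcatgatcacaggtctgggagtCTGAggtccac
Box C begins at base 9 in all 4, and box D at base 62 or 63. In the library labelled Pc4-OE the rows of AF357425, DQ267100, DQ267101 and DQ267102 had 13, 12, 1 and 9 counts. In the library labelled control they had 7, 4, 1 and 3 counts. Each of these 4 intervals includes a ratio of 1.

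The table also has 61 rows of microRNA genes between Dlk1 and Dio3. Of these, 42 were at 0 in both libraries and the others had 36 counts in the library labelled Pc4-OE, against 21 in the library labelled control (log2 ratio of the sums 0.79, interval -0.03 to 1.64). Mature microRNAs have no poly(A) tail and are not measured by such libraries. Mir3072, inside Mirg, had the most, with 13 counts in the library labelled Pc4-OE, against 3 in the library labelled control (log2 ratio 2.12, interval 0.26 to 4.58). Its 16 counts are under the minimum for a call. For these 61 genes RefSeq gives 113 mature sequences, with 104 different seeds (bases 2 to 8). Of the seeds, 9 are shared by a pair of mature sequences each, and miR-379-3p and miR-411-3p are such a pair. The arms of miR-3072 are shown as the best-counted row, and miR-127-3p and miR-136-5p because their hairpins lie opposite Rtl1, whose RNA they are known to target in the mouse. Capitals mark the seed.
mmu-miR-3072-5p: aGGGACCCcgagggagggcagg
mmu-miR-3072-3p: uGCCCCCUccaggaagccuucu
mmu-miR-127-3p: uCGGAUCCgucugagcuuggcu
mmu-miR-136-5p: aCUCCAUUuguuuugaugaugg
mmu-miR-379-3p: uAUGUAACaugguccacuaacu
mmu-miR-411-3p: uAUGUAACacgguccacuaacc
There are 6 hairpins on the strand opposite Rtl1, and all 6 had 0 counts in both libraries. By counting error alone, a count of 0 allows up to 0.290 CPM in the library labelled Pc4-OE and 0.288 CPM in the library labelled control. If reads that overlap 2 genes were left out of the counts, a 0 in these rows sets no such limit.

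Genes outside the imprinted interval were set beside the cluster to see how far its difference reached. Within 1 Mb on either side, 20 measured genes had a median log2 ratio of 0.12 and a range of -0.53 to 1.39. Of these, 3 were called higher and 0 lower, next to 11.8% and 4.02% of all measured genes. Begain, the nearest measured gene before Dlk1, had 116 counts in the library labelled Pc4-OE, against 51 in the library labelled control (log2 ratio 1.19, interval 0.71 to 1.70). Mok, a protein kinase gene beyond Dio3, had 195 counts in the library labelled Pc4-OE, against 84 in the library labelled control (1.22, 0.85 to 1.61). The third was Slc25a29, a mitochondrial carrier gene with 26 and 10 counts in the same order. Wdr25, between Slc25a29 and Begain, had 107 counts in each library (0.01, -0.39 to 0.41), and Ppp2r5c, the nearest measured gene after Dio3, had a log2 ratio of 0.20 (0.11 to 0.29). The flanking genes were thus mixed. The median of the 495 measured genes of chromosome 12 was 0.05 (interval 0.01 to 0.13).

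**Figure D3:**
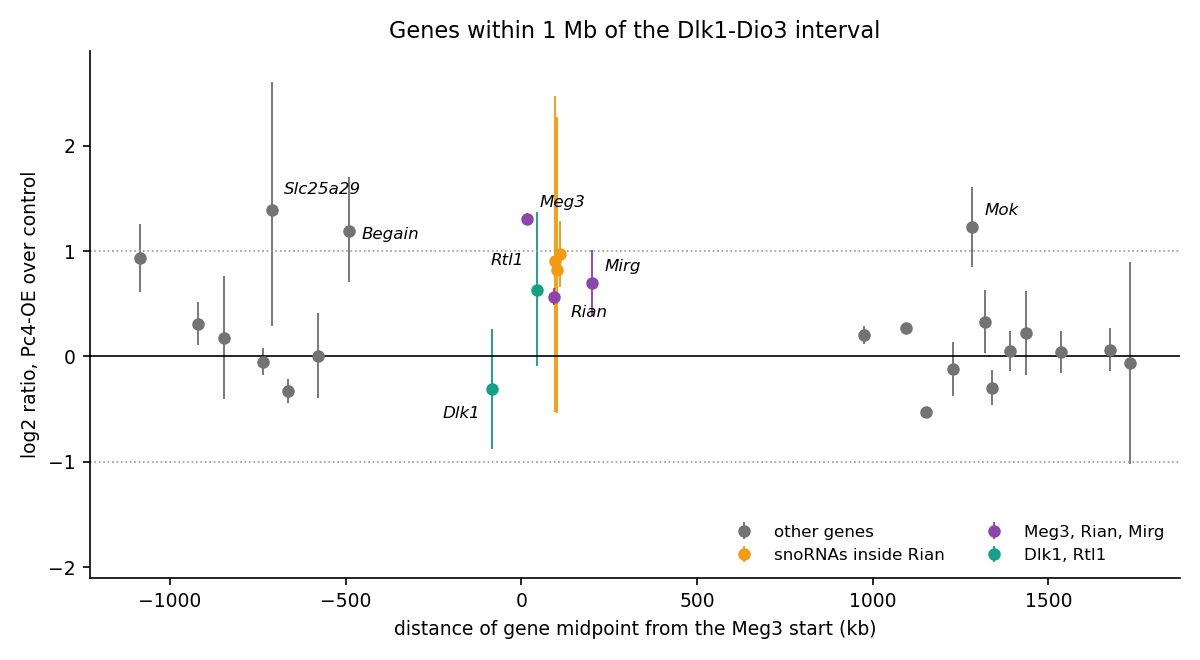
Log2 ratio, Pc4-OE over control, against the distance of each gene's midpoint from the Meg3 start in kb, for the 28 genes with at least 20 counts within 1 Mb of the interval. Bars are exact 95% intervals of the counts, and dotted lines mark 2-fold. Meg3, Rian, Mirg, Rtl1 and the small nucleolar RNAs lie above 0, Dlk1 lies below it, and the flanking genes lie on both sides. The bars of Dlk1, Rtl1 and the small nucleolar RNAs AF357425 and AF357426 include 0.

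Markers of embryonic fibroblasts, the feeder type, differed in the same direction as the maternal transcripts. All 24 fibroblast markers had a higher ratio than 1, and 18 were called higher and 0 lower. Their median was 1.24 on the log2 scale, with an interval of 1.04 to 1.97. Their summed level was 14130 CPM in the library labelled Pc4-OE and 5549 CPM in the library labelled control, and none was at 0. Col1a1, a collagen gene, had 1535.8 CPM in the library labelled Pc4-OE and 732.5 CPM in the library labelled control. All 16 macrophage markers had a ratio above 1 and 15 were called higher and 0 lower, with a median of 2.31. Their sums were 645.8 CPM in the library labelled Pc4-OE and 228.3 CPM in the library labelled control, and none was at 0. Of 12 stem cell markers, 0 were called higher and 1 lower (Lin28a, log2 ratio -1.01), with a median of -0.13. The 5 with a ratio above 1 were Fgf4 (log2 ratio 0.54), Nanog (0.24), Klf4 (0.22), Dppa5a (0.07) and Esrrb (0.03), Sox2 had -0.02, and Pou5f1 (-0.93) and Lin28a had the lowest ratios. Their sums were 5473 CPM in the library labelled Pc4-OE and 6696 CPM in the library labelled control.

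Meg3 had 5.54 counts per 100 counts of the fibroblast markers in the library labelled Pc4-OE and 5.72 in the library labelled control. The ratio of the 2 values was 0.970. Rian had 2.20 and 3.78 counts per 100 fibroblast marker counts in the same order (ratio 0.582), and Mirg had 0.155 and 0.244 (0.636). Per 100 counts of the stem cell markers, Meg3 had 14.3 in the library labelled Pc4-OE and 4.74 in the library labelled control, a ratio of 3.02. The ratios of Rian and Mirg to the stem cell markers were 1.81 and 1.98. Per count of the macrophage markers, the ratios were 0.873 for Meg3, 0.524 for Rian and 0.573 for Mirg. Meg3 thus differed between the libraries by about as much as the fibroblast markers summed, and by slightly less than the macrophage markers summed. The macrophage sums, 645.8 CPM (Pc4-OE) and 228.3 CPM (control), include Laptm5, the marker of that list not called higher. It had 131.6 CPM in the library labelled Pc4-OE and 109.6 CPM in the library labelled control (log2 ratio 0.26). The median log2 ratio of the macrophage markers, 2.31, was above that of Meg3, 1.30. Rian and Mirg differed by less than either list. The trophoblast markers, read further below, summed to 171.4 CPM in the library labelled Pc4-OE and 68.7 CPM in the library labelled control, a ratio also near that of Meg3. A sum ratio near that of Meg3 was thus found for more than the fibroblast list, but the trophoblast one is largely that of Tfap2c. That gene gave 130.0 CPM of the trophoblast sum in the library labelled Pc4-OE and 49.8 CPM in the library labelled control. The part of these markers in the difference of the cluster was not tested, and in bulk RNA more cells of a type and more RNA per cell cannot be told apart.

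Genes with the most similar ratio were looked up for each member with at least 100 counts, among genes whose mean level was within 2-fold. With 2 libraries this likeness is a single number per gene. Nearest to Meg3 were Lamb1, a laminin subunit gene on chromosome 12 (log2 ratio 1.30), Col6a1, a collagen gene that is 1 of the fibroblast markers above (1.29), and Ddit4, a stress-induced inhibitor of mTOR signalling (1.26). Nearest to Rian were Maged1, Fbxo15 and Anxa6, each with 0.56 or 0.57. Mirg was nearest to Sesn3, Arsk and Gap43, with 0.70 or 0.69, and Dlk1 to Ccdc51, Lingo1 and Myl6b, with -0.31 or -0.30.

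Imprint control factors mostly had a ratio below 1, Pc4-OE over control, by less than 2-fold. The list pools factors that set or protect the imprint with the Tet genes, which oxidise methylated cytosine. Of 19 measured factors, 17 had a ratio below 1, and 1 was called higher and 0 lower. Their log2 ratios had a median of -0.38, with an order-statistic interval of -0.61 to -0.18. For all measured genes the median was -0.01, and 49.3% had a ratio above 1. Dppa3, an oocyte and germ cell factor that protects methylation, had 104 counts in the library labelled Pc4-OE, against 52 in the library labelled control (log2 ratio 1.01, interval 0.52 to 1.52). Tet1 and Tet2, which oxidise methylated cytosine, had log2 ratios of -0.78 and -0.81. Dnmt3l, the cofactor of the de novo methyltransferases, had 249.7 CPM in the library labelled Pc4-OE and 427.5 CPM in the library labelled control (-0.78). Zfp57, which binds methylated imprints, and its corepressor Trim28 had -0.47 and -0.33. Aff3, known to bind at this cluster in mouse stem cells, had 0.34 (0.02 to 0.66). Of 10 genes of Polycomb complex PRC2, Jarid2 was called lower, with 285.8 CPM in the library labelled Pc4-OE and 643.2 CPM in the library labelled control (log2 ratio -1.17), and 0 were called higher. Ezh2, the methyltransferase subunit, had -0.56 and its relative Ezh1 0.91, and the median was -0.19.

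Genes of the Notch pathway, to which Dlk1 is related, went both ways. Of 14 measured, 9 had a ratio above 1 and 5 below it, and 1 was called higher and 2 lower, with a median of 0.27. Dll1, a Notch ligand, had 355 counts in the library labelled Pc4-OE, against 135 in the library labelled control (log2 ratio 1.40, interval 1.11 to 1.70). Notch4 had 345 and 704 counts in the same order (-1.02), and Dll3, a ligand-like inhibitor, had 18 and 53 (-1.55). The target Hes1 had a log2 ratio of 0.65. Of the genes of thyroid hormone action, in which Dio3 takes part, all 8 measured had a ratio above 1. Of these, 3 were called higher and 0 lower, and some had an interval that includes 1. The median log2 ratio was 0.90, with a wide order-statistic interval of 0.04 to 2.08. Dio2, the deiodinase that activates the hormone, had 21 counts in the library labelled Pc4-OE, against 5 in the library labelled control. The receptor gene Thrb had 17 and 5 counts in the same order. The fibroblast markers lay in the same direction, with a median of 1.24.

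**Figure D4:**
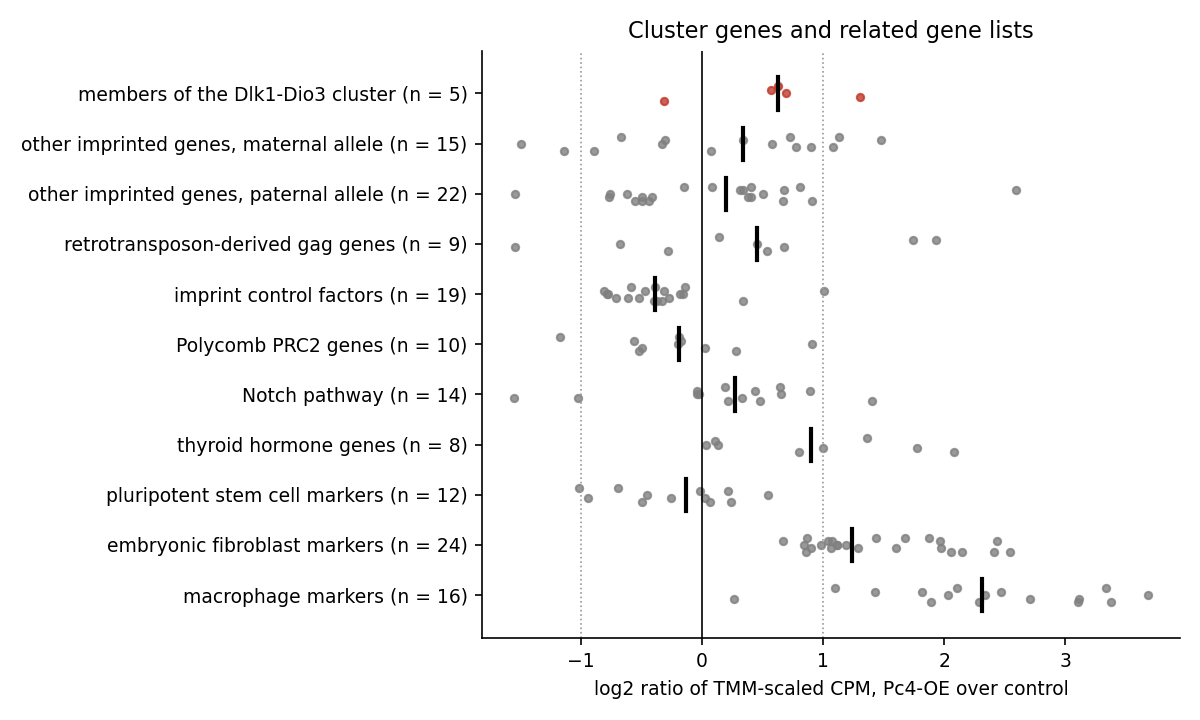
Log2 ratio, Pc4-OE over control, of every measured gene (points) of the cluster and of related lists, with the median of each list as a bar and 2-fold as dotted lines. The 5 measured members have a median of 0.63, the imprint control factors one of -0.38 and the fibroblast markers one of 1.24.

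Other imprinted genes went both ways. Of 15 measured genes expressed from the maternal allele, 3 were called higher and 2 lower, with a median log2 ratio of 0.34. H19, the growth-limiting noncoding RNA next to Igf2, had 486.2 CPM in the library labelled Pc4-OE and 229.1 CPM in the library labelled control (log2 ratio 1.09), while Igf2 had 0.50. Of 22 measured genes expressed from the paternal allele, 1 was called higher (Peg12, with 18 and 3 counts) and 1 lower, with a median of 0.20. The lower one was Peg10, a retrotransposon-derived gene like Rtl1. It had 277.4 CPM in the library labelled Pc4-OE and 807.8 CPM in the library labelled control (-1.54, interval -1.60 to -1.48). Among 9 measured genes of the same retrotransposon-derived kind, Rgag4 (110 and 29 counts, log2 ratio 1.93) and Cxx1c (50 and 15 counts, 1.75) were called higher, and Peg10, which is in both lists, was the 1 called lower. Their median was 0.46, and it was -0.28 for those with at least 100 counts. The Dlk1-Dio3 members, with a median of 0.63 on 5 genes, lay within the range of both imprinted lists, -1.49 to 1.48 for the maternal and -1.54 to 2.59 for the paternal one.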

How the data were processed

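The authors deposited a table of raw read counts with a column for each library. Per the submitters' processing notes, STAR 2.4.1c and featureCounts were used with the build mm10. Annotation, strand setting and the handling of multi-mapping reads: not given in the sources used here. Reads in overlapping genes, such as hosts and their small RNAs, may have been counted for both genes or for neither.

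From these counts, CPM were computed on effective library sizes (TMM, edgeR 4.0.16). The ratio was taken without a pseudocount, with its exact (Clopper-Pearson) 95% interval. Ratios between 2 genes within a library have the exact conditional interval of the odds ratio (scipy 1.17.1), and an interval of a median is the order-statistic one. All intervals cover counting error only: PCR copies of a molecule are counted as separate reads. A fitted test needs replicates, and there was 1 library per group, so no p-value is given. Floors are 3 counts. Alternatives were library totals, median-of-ratios size factors (DESeq2 1.42.0), a pseudocount of 0.5 CPM, minimums of 1 and 100 counts, and a 1.5-fold rule.

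Entrez IDs matched a RefSeq gene table of GRCm38.p6, the assembly behind mm10, for 23977 rows (99.7%). Promoter and microRNA sequences are RefSeq's (GRCm38.p6): 5 of the 6 members had a promoter entry. Small nucleolar RNA sequences and gene spans are from GENCODE M21.

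The members and the 12 gene lists were chosen with earlier results of these data known. Of 187 listed genes, 185 were found. Named genes are the members, neighbours with at least 20 counts, list members past the 2-fold rule or, of at least 100 counts, among the 4 of a list whose bound nearest to 0 is largest, and the 3 genes nearest in ratio to each member of at least 100 counts. Outside this rule, Nanog, Klf4, Dppa5a, Esrrb, Sox2, Igf2, Zfp57, Trim28, Aff3, Laptm5, Cdx2, Elf5, Mir3072 and 3 small nucleolar RNA rows were named after their values were seen. One gene that the rule names is not reported here. The interval and rule steps were tested on simulated counts with known changes.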

Additional observations from a re-analysis of the deposited data

How the results depend on the processing

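The log2 ratio of each of the 6 members kept its sign and stayed within its counting interval with library totals, median-of-ratios size factors and a pseudocount of 0.5 CPM. That of Meg3 ran from 1.30 to 1.35, and that of Dio3 from 0.69 with the pseudocount to 1.47. Under each scaling, pseudocount and count minimum, Meg3 was the 1 member called higher. With the 1.5-fold rule 2 members were called, Meg3 and Mirg, while Rian, at 1.48-fold, was not. That rule called 2673 genes of the whole table higher and 1878 lower, and a minimum of 100 counts left 1095 higher and 366 lower. The median of the measured members ran from 0.57 to 0.67. The median of the retrotransposon-derived gag genes changed sign, from 0.46 to -0.28, with a minimum of 100 counts, where fewer genes are measured. The other 11 list medians kept their sign, that of the maternally expressed genes falling to 0.07. Of 207 other named genes, 9 values changed sign under an alternative, the largest of them at 0.04 from 0, and with library totals 9 left their counting interval without a change of sign. With all exons joined, an alternative chosen after seeing the data, levels per kilobase in the libraries labelled Pc4-OE and control were 43.3 and 17.5 for Meg3, 17.1 and 11.5 for Rian and 3.01 and 1.86 for Mirg. With 1 library per group no library could be left out. No paired analysis was possible because there was 1 library per group and no fit. Depth limits Dlk1, Rtl1 and Dio3, with 110, 71 and 11 counts in all.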

Other observations

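Markers of other embryonic lineages were read for cells that stem cell cultures can hold. Of 7 measured trophoblast markers, 5 were called higher and 0 lower, Pc4-OE over control, with a median log2 ratio of 1.38. Tfap2c, a factor of the AP-2 family, had 1346 counts in the library labelled Pc4-OE, against 519 in the library labelled control (log2 ratio 1.38, interval 1.24 to 1.53). The keratin gene Krt7 had 87 counts in the library labelled Pc4-OE, against 15 in the library labelled control. Cdx2 and Elf5, which define the lineage, had 0 and 2 counts with the label Pc4-OE, against 3 and 1 in the library labelled control. Of 5 measured endoderm markers, Dab2 (950 counts in the library labelled Pc4-OE, 249 in the library labelled control) and Gata4 (46 and 23 in the same order) were called higher and 0 lower, with a median of 0.79. The fibroblast markers lay in the same direction, and the part of these lineages in the levels of Meg3, Rian and Mirg was not tested.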
